A study of Homo sapiens with 8 samples.

Results

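The genes examined were 10 genes of canonical WNT signalling, which were CTNNB1, AXIN2, LEF1, TCF7, NKD1, LGR5, DKK1, RNF43, ZNRF3 and SP5. They were chosen by name, as the gene for beta-catenin and genes known to be switched on by it, out of 69215 genes listed in every library. The choice was made with earlier results of these data known. All 10 were found by their Ensembl identifiers. Total RNA had been sequenced in G401 cells, a long-established kidney rhabdoid tumor line without SMARCB1, which is a core part of the mSWI/SNF chromatin remodelling complexes. Separate G401 lines carried a doxycycline-inducible SMARCB1 or, as a control, a doxycycline-inducible GFP, and each line received 0.1 µg/ml doxycycline (Dox) or an equivalent amount of the solvent dimethylsulfoxide (DMSO) for 12 h. This gave 4 groups of 2 libraries, SMARCB1 DMSO, SMARCB1 Dox, GFP DMSO and GFP Dox, of which SMARCB1 Dox was the group with restored SMARCB1. The comparisons asked what SMARCB1 re-expression changed, whether Dox did so without it, and how the lines differed before induction.

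In canonical WNT signalling, a secreted WNT ligand binds a Frizzled receptor and an LRP5 or LRP6 co-receptor, which stops a cytoplasmic destruction complex from marking beta-catenin for degradation. Beta-catenin then enters the nucleus and activates genes together with the DNA-binding proteins of the TCF/LEF family. Several of the activated genes restrain the pathway again, such as AXIN2, a scaffold of the destruction complex, NKD1, which acts on Dishevelled, and RNF43 and ZNRF3, ubiquitin ligases that remove Frizzled from the cell surface. SWI/SNF complexes open chromatin at many regulatory elements, and loss of SMARCB1 is the defining genetic lesion of rhabdoid tumors.

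Reads assigned to genes numbered 29632090 to 37597477 per library. Mitochondrially encoded genes took 18.9% to 27.9% of them, the most in SMARCB1 DMSO replicate 1. In the SMARCB1 line this share was 23.9% and 27.9% in DMSO and 21.3% and 22.9% in Dox, and its part in the results below was not tested. The induced gene SMARCB1 went from 10 and 21 to 30474 and 29383 counts, with 0 in all GFP libraries. Defining markers of blood, endothelial, liver and epithelial cells were near 0, with PTPRC at 0 to 2 counts, CDH5 at 0 to 16, ALB at 0 to 1 and EPCAM at 0 to 7, whereas VIM, of mesenchymal cells, had 22088 to 45130. In bulk RNA, fewer cells using a gene and less RNA per cell cannot be told apart. The study's methods state duplicate experiments, each condition pooled from 6 plates, but not that replicates were separate cultures, so the p-values measure the spread between these libraries, which may be technical.

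The 10 genes fell into 3 tiers of abundance. CTNNB1, ZNRF3, TCF7 and AXIN2 were read in every library, with at least 55 counts each. DKK1 had at least 5080 counts in the GFP line and at most 17 in the SMARCB1 line. NKD1 had 3 to 24 counts, and LEF1, LGR5, RNF43 and SP5 had at most 3 in any library. Only 6 of the 10 genes (CTNNB1, AXIN2, TCF7, NKD1, DKK1 and ZNRF3) passed the filter on low counts and could be tested, and for the other 4 the level is given without a test.

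**Figure D1:**
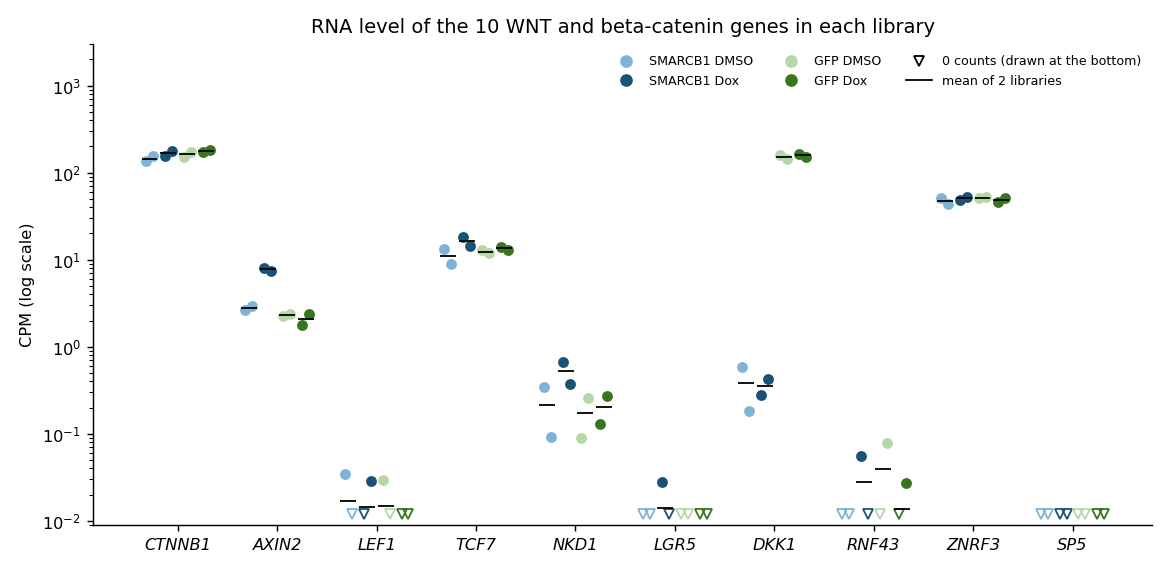
Scaled read counts (CPM, logarithmic axis) of the WNT and beta-catenin genes in each of the 8 libraries, with 1 point per library. AXIN2 is at 7.44 and 8.03 CPM in SMARCB1 Dox and at 2.91 CPM or lower in the other libraries, and DKK1 is at 143 CPM or higher in the GFP line and at 0.583 CPM or lower in the SMARCB1 line.

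Levels of different genes were compared as CPM (read counts scaled by library size with TMM factors) per kb of exon, averaged over the 8 libraries. DKK1 stood highest at 34.9 CPM per kb, which came from the GFP line, followed by CTNNB1 at 13.8, ZNRF3 at 7.08, TCF7 at 1.31 and AXIN2 at 0.720. NKD1 followed at 0.0161, and RNF43, LEF1 and LGR5 were at 0.00319 or lower. In SMARCB1 DMSO, by contrast, DKK1 was at 0.172 ± 0.128 CPM per kb (SD, n = 2), below AXIN2 at 0.537 ± 0.032 and TCF7 at 1.10 ± 0.291. The levels per kb of TCF7 and AXIN2, neighbours in this order, were separated in SMARCB1 DMSO but overlapped in SMARCB1 Dox, where AXIN2 ranged from 1.43 to 1.55 and TCF7 from 1.42 to 1.79. The levels per kb divide by all exon bases, including those shared with a gene on the same strand, 25.3% for AXIN2 and 68.4% for RNF43. Reads wholly within the shared bases could be assigned to neither gene. The levels of AXIN2 and RNF43 may thus be too low, and their places relative to other genes, TCF7 included, are uncertain.

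In total, 2 of the 6 tested members, AXIN2 and TCF7, were called in the SMARCB1 line, both higher. Of all 15931 genes tested, 14% were called in this comparison, 8.33% higher and 5.69% lower. In the GFP line 0 of 6 members and 0% of all genes were called by edgeR, and DESeq2 called 0 members. Of the members 0 had an unadjusted p under 0.05, and 266 of all 15931 genes did. This is fewer than such a threshold gives without any effect, so the test may be conservative in the GFP line. The difference between the lines was called for 1 member, AXIN2, against 4.71% of all genes (3.07% positive and 1.64% negative). Before induction 1 member, DKK1, differed between the lines, lower in the SMARCB1 line, against 32% of all genes (16.3% higher and 15.7% lower). The median log2 fold change of the 6 members in the SMARCB1 line was 0.38, against -0.0038 over all genes tested. For the same 6 members it was 0.09 in the GFP line and 0.31 for the difference. With only 6 genes, 2 of them called, this median does not show a shift of the whole set.

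**Figure D2:**
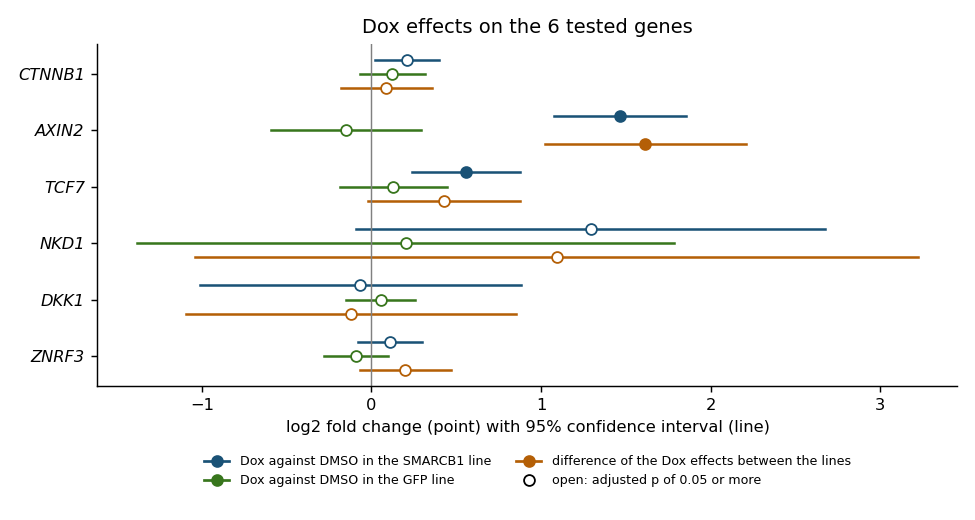
Log2 fold changes of Dox against DMSO in either line, and of the difference between these effects, as points with 95% intervals from edgeR for the 6 tested members, filled where the adjusted p is under 0.05. AXIN2 stands apart at 1.47 in the SMARCB1 line against -0.15 in the GFP line, while NKD1 and DKK1 have wide intervals.

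AXIN2 was the member with the strongest response to SMARCB1 re-expression among those called. AXIN2 (ENSG00000168646), whose product limits the pathway by rebuilding the destruction complex, lies on the minus strand at chr17:65528563-65561648 (GRCh38). The SMARCB1 line gave 78 and 96 counts with DMSO and 286 and 260 with Dox, while the GFP line gave 77 and 92 with DMSO and 55 and 88 with Dox. Both SMARCB1 Dox libraries were above all 6 other libraries, and the other groups lay close together. Its level was 2.79 ± 0.167 CPM in SMARCB1 DMSO and 7.73 ± 0.421 CPM in SMARCB1 Dox (SD, n = 2), a 2.76-fold increase with a 95% interval of 2.11 to 3.62. On the log2 scale the increase was 1.47 with an SE of 0.188 (edgeR quasi-likelihood test with Benjamini-Hochberg adjustment, adjusted p = 1.20e-05).

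In the GFP line, the AXIN2 level was 2.34 ± 0.083 CPM in DMSO and 2.09 ± 0.437 CPM in Dox, a log2 fold change of -0.15 with a 95% interval of -0.59 to 0.29 (edgeR, adjusted p = 1). The Dox effect in the SMARCB1 line exceeded that in the GFP line by 1.62 on the log2 scale, with a 95% interval of 1.02 to 2.21 (edgeR, adjusted p = 0.00137). The SMARCB1 effect passed the threshold in all 15 alternative analyses, at log2 values of 1.38 to 1.56, and so did the difference between the lines, at 1.43 to 1.86. Of the AXIN2 exon bases, 25.3% are shared with a readthrough gene on the same strand (ENSG00000266076), which had 0 counts in every library. Reads within those shared bases could be assigned to neither gene, so the AXIN2 counts may leave out part of its reads.

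TCF7 was the other member called. It encodes a DNA-binding TCF/LEF factor (ENSG00000081059) and lies on the plus strand at chr5:134114681-134151865. Counts of TCF7 went from 383 and 296 with DMSO to 644 and 502 with Dox in the SMARCB1 line, and were 432 and 454, then 429 and 476, in the GFP line. The SMARCB1 Dox libraries were again the highest, at 18.1 and 14.4 CPM, but the gap to the other groups was small, since SMARCB1 DMSO replicate 1 reached 13.1 CPM and GFP Dox replicate 1 reached 13.9 CPM. The fold change in the SMARCB1 line was 1.47, or 0.56 on the log2 scale with an SE of 0.153 (edgeR, adjusted p = 0.0162). This call was lost without SMARCB1 Dox replicate 1 (log2 0.38, edgeR adjusted p = 0.229), without SMARCB1 DMSO replicate 2 (log2 0.30, edgeR adjusted p = 0.242) and with the trend over exon GC content removed (log2 0.46, edgeR adjusted p = 0.0561). The log2 fold change was 0.13 in the GFP line, and the difference between the lines, 0.43 with an SE of 0.216, did not pass the test (edgeR, adjusted p = 0.340). TCF7 shares 210 exon bases with SKP1 on the opposite strand, a gene with 807 to 1064 counts, and the strand setting of the counting was not stated.

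LEF1, the other TCF/LEF factor among the members, had a total of 3 counts over the 8 libraries. This corresponds to 0.0110 CPM over all libraries pooled, and no change between groups was detectable at this depth.

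Of the feedback inhibitors and receptor regulators, none besides AXIN2 passed the test in the SMARCB1 line. ZNRF3 was well read, with 1475 and 1433 counts (DMSO) and 1747 and 1827 counts (Dox) in the SMARCB1 line, and 1729 and 2004 (DMSO) and 1416 and 1865 (Dox) in the GFP line. Its scaled levels ranged from 43.4 to 52.2 CPM and overlapped between Dox and DMSO in the SMARCB1 line, with a log2 fold change of 0.11 and a 95% interval of -0.08 to 0.30 (edgeR, adjusted p = 0.508).

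NKD1 was thinly read, with 10 and 3 counts before and 24 and 13 after induction of SMARCB1, and 3 and 10 before and 4 and 10 after induction of GFP. The SMARCB1 Dox libraries were the highest by scaled level, at 0.674 and 0.372 CPM against 0.343 CPM or less elsewhere. The log2 fold change in the SMARCB1 line was 1.29 with a 95% interval of -0.09 to 2.68, so at this depth NKD1 could not be shown to differ (edgeR, adjusted p = 0.230). Its value rested on single libraries, from 0.60 without SMARCB1 DMSO replicate 2 and 0.80 without SMARCB1 Dox replicate 1 to 2.48 without SMARCB1 DMSO replicate 1. RNF43 had 2 counts in SMARCB1 Dox replicate 1, 3 in GFP DMSO replicate 2, 1 in GFP Dox replicate 2 and 0 in the other libraries. A readthrough gene on the same strand covers 68.4% of the RNF43 exon bases in the annotation used here, and reads within those bases could be assigned to neither gene. LGR5, a receptor for R-spondins that marks stem cells of several epithelia, had 1 count in all, in SMARCB1 Dox replicate 1. The differences of the Dox effects between the lines were 0.20 for ZNRF3 (edgeR, adjusted p = 0.491) and 1.09 for NKD1 (edgeR, adjusted p = 0.684). The NKD1 difference ran from 0.12 without GFP DMSO replicate 2 to 2.28 without SMARCB1 DMSO replicate 1.

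CTNNB1 (ENSG00000168036), which encodes beta-catenin, lies on the plus strand at chr3:41194741-41260096. Its counts were 3924 and 5100 with DMSO and 5589 and 6222 with Dox in the SMARCB1 line. In the GFP line they were 5118 and 6585 with DMSO and 5263 and 6635 with Dox. The level was 145 ± 14.2 CPM in SMARCB1 DMSO and 167 ± 14.8 CPM in SMARCB1 Dox (SD, n = 2). These groups nearly met, with the higher DMSO library at 155 CPM and the lower Dox library at 157 CPM. The GFP line, at 151 to 181 CPM, overlapped with both. The log2 fold change was 0.21 with a 95% interval of 0.02 to 0.40, and it missed the threshold after adjustment over all genes (edgeR, adjusted p = 0.138). It was called in 4 of the 15 alternatives. These were scaling to library totals (log2 0.30, edgeR adjusted p = 0.0356), the replicate block (0.21, edgeR adjusted p = 0.0211), that block with the GC trend removed (0.27, edgeR adjusted p = 0.00175) and leaving out SMARCB1 DMSO replicate 2 (0.32). Without SMARCB1 DMSO replicate 1 the log2 fold change was 0.11. In the GFP line the log2 fold change was 0.12, and the difference between the lines was 0.09 (edgeR, adjusted p = 0.827).

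DKK1, a secreted inhibitor that binds LRP5 and LRP6, separated the lines irrespective of Dox. The gene (ENSG00000107984) lies on the plus strand at chr10:52314281-52318042. In the SMARCB1 line DKK1 had 17 and 6 counts with DMSO and 10 and 15 with Dox. The GFP line had 5429 and 5496 counts with DMSO and 5080 and 5516 with Dox, so the lines did not overlap under either treatment. In DMSO the level was 0.382 ± 0.284 CPM with the SMARCB1 construct and 152 ± 12.4 CPM with the GFP construct, a 406-fold difference, or -8.66 on the log2 scale with an SE of 0.186 (edgeR, adjusted p = 3.31e-19). The ratio of the pooled counts, 10925 against 23, was 409 after scaling, with an exact 95% counting interval of 272 to 645.

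Re-expression of SMARCB1 left DKK1 near this low level. Its log2 fold change was -0.06 with a 95% interval of -1.01 to 0.88 in the SMARCB1 line (edgeR, adjusted p = 0.957), against 0.05 with GFP, and in Dox the GFP line was still 444-fold higher by pooled counts, with an exact interval of 300 to 686. The SMARCB1 line thus had few DKK1 counts both without and with induced SMARCB1. An antisense gene, PRKG1-AS1, shares 10.2% of the DKK1 exon bases and had 26 to 29 counts in the GFP libraries and 0 in the SMARCB1 libraries. SP5, a zinc finger gene regarded as a direct beta-catenin target in many cell types, had 0 counts in all 8 libraries, which allows a level of up to 0.0110 CPM over the libraries pooled.

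Promoter sequences were examined for the heptamers CTTTGAT and CTTTGAA, the core bound by TCF/LEF factors, on both strands. RefSeq promoter windows, which run from 250 bases before to 50 bases after a start site (GRCh38.p14), were found for 6 of the 10 members (CTNNB1, LEF1, TCF7, DKK1, RNF43 and SP5), while AXIN2, NKD1, LGR5 and ZNRF3 had no entry. A heptamer occurred in the windows of SP5 (3 matches) and DKK1 (1 match). Of all 35116 windows, 6.86% held either heptamer and 0.0256% held at least 3 matches. The upstream 250 bases are shown for these genes, the unread SP5 and the line-dependent DKK1, and for both start sites of TCF7, the called member with an entry. All are given 5′ to 3′ on the plus strand, which is the strand of these genes, with matches in capitals. They span chr2:170715087-170715336 for SP5, chr10:52314031-52314280 for DKK1, and chr5:134115363-134115612 and chr5:134123368-134123617 for TCF7.
SP5: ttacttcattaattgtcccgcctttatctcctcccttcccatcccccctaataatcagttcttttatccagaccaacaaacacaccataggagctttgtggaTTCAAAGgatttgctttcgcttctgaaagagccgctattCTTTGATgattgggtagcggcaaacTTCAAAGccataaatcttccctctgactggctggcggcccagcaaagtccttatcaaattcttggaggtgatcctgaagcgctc
DKK1: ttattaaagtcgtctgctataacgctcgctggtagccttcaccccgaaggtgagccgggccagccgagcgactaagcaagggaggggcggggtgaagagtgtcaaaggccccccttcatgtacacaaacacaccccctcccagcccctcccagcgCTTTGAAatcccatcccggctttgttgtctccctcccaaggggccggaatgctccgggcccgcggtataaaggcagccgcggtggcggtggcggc
TCF7, first start site: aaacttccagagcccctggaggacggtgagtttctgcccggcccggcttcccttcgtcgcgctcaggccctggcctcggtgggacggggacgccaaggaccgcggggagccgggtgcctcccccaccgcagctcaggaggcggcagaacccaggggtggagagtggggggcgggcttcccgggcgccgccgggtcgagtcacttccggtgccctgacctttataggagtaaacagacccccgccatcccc
TCF7, second start site: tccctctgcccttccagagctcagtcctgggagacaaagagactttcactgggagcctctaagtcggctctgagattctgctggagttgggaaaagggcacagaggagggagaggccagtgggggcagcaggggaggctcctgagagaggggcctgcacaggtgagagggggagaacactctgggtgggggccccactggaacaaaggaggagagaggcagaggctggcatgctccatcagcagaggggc

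In the SP5 sequence the matches lie 148 to 142, 109 to 103 and 84 to 78 bases before the start site, with the first and the last read on the minus strand. The DKK1 match lies 95 to 89 bases before its start site. Neither TCF7 sequence holds one. A match describes these letters only, and the SP5 sequence with the most matches belonged to the member without a read.

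The rest of the pathway was described from 7 lists with 108 genes, of which 72 were tested. The lists were chosen with earlier results of these data known, so their called shares are not an independent test of the pathway. With SMARCB1 re-expression 15 of the 72 genes rose and 7 fell, together 30.6% of those tested, next to 14% of all genes. By list this share ran from 6.25% (1 of 16) to 50% (1 of 2). In the GFP line 0 were called by edgeR or by DESeq2 and 0 had an unadjusted p under 0.05. For 12 of the 72 the difference between the lines was called (8 higher and 4 lower, 16.7%), next to 4.71% of all genes. The median log2 fold change of the 72 genes in the SMARCB1 line was 0.05. Of the 36 genes not tested, 10 had no read in any library, namely WNT2, WNT3, ROR1, RSPO4, DKK4, SFRP1, SFRP2, SFRP4, SOX9 and CCN4.

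**Figure D3:**
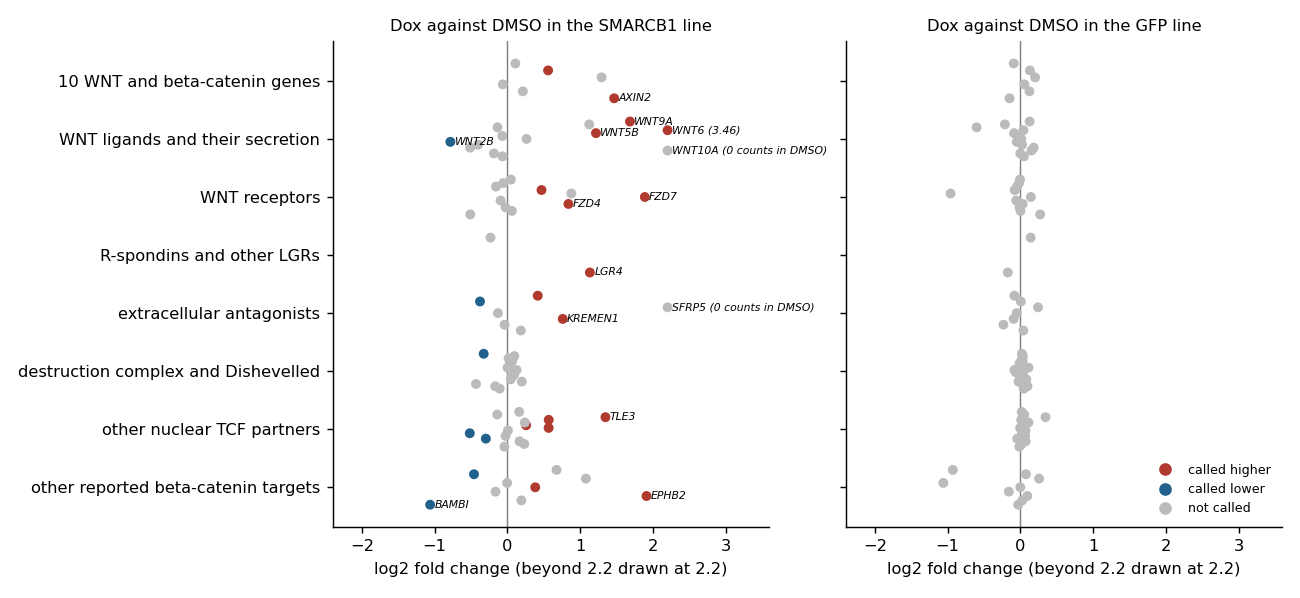
Log2 fold changes of Dox against DMSO in the SMARCB1 line (left) and the GFP line (right), 1 point per tested gene, by pathway list, with genes called by edgeR in red (higher) or blue (lower). Colored points occur only on the left, where WNT6, EPHB2, FZD7, WNT9A and AXIN2 lie far to the right and BAMBI far to the left. Large values, that of WNT6 among them, are drawn at a fixed limit.

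Among WNT ligands and their secretion factors, 3 of 13 tested genes rose and 1 fell, with a list median of -0.07 (log2). Over all genes 8.33% were called higher and 5.69% lower. WNT9A rose by 1.68 on the log2 scale (SE 0.333, edgeR adjusted p = 0.00129), from 0.697 to 2.24 CPM. WNT5B rose by 1.22 (SE 0.222, edgeR adjusted p = 0.000603), from 1.68 CPM to 3.90 CPM, close to its 4.11 CPM in GFP DMSO. The third riser, WNT6, went from 0 and 3 to 29 and 11 counts, against 97 to 116 in the GFP line. The pooled WNT6 counts rose 11.7-fold, with an exact 95% counting interval of 3.74 to 59.3, and still stayed below those of the GFP line.

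WNT2B, the ligand with the largest fall, had 1111 and 1019 CPM in SMARCB1 DMSO and 605 and 632 CPM in SMARCB1 Dox, against 396 to 452 CPM in the GFP line. Its log2 fold change was -0.78 (SE 0.0862, edgeR adjusted p = 1.79e-06), and the difference between the lines was -0.73 (edgeR adjusted p = 0.000791). WNT2B shares 21.5% of its exon bases with ST7L on the opposite strand, whose counts reached 455. WNT5A, a ligand mostly tied to beta-catenin-independent signalling, was abundant in every group, with means of 1119 to 1257 CPM.

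Of 11 tested receptors, 3 were called higher and 0 lower, next to 8.33% and 5.69% of all genes, and the list median was 0.05. FZD7, a Frizzled receptor of stem and tumor cells, went from 238 and 272 to 996 and 1146 counts in the SMARCB1 line, and had 217 and 239 (DMSO) and 221 and 249 (Dox) in the GFP line. The SMARCB1 Dox libraries were far above the other 6, which lay between 6.22 and 8.25 CPM. The increase was 3.70-fold, from 8.20 ± 0.060 to 30.4 ± 3.40 CPM (SD, n = 2), or 1.89 on the log2 scale (SE 0.124, edgeR adjusted p = 3.14e-09), and it exceeded the effect in the GFP line by 1.74 (edgeR adjusted p = 6.59e-06).

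FZD4 rose by 0.84 (SE 0.176, edgeR adjusted p = 0.00223), though 18.9% of its exon bases lie opposite PRSS23, whose counts reached 10101. The co-receptor LRP5 was the third receptor called higher, at 72.8 and 62.4 CPM with DMSO and 94.9 and 92.1 CPM with Dox. Its Dox effect differed between the lines by 0.55 (edgeR adjusted p = 0.0135), a call lost with the GC trend removed (0.37) and without SMARCB1 DMSO replicate 2 (0.44), GFP DMSO replicate 2 (0.55) or GFP Dox replicate 1 (0.45).

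LGR4, a receptor through which R-spondins protect Frizzled from RNF43 and ZNRF3, was 1 of 2 tested genes among the R-spondins and other LGRs. Its counts went from 1989 and 1678 to 4410 and 4790 in the SMARCB1 line and from 375 and 385 to 304 and 325 in the GFP line. The lines thus differed already in DMSO, by 2.49 on the log2 scale (SE 0.122, edgeR adjusted p = 2.40e-13), and SMARCB1 re-expression widened the gap. Its level rose 2.19-fold, from 59.5 ± 12.3 to 130 ± 9.30 CPM (SD, n = 2), or by 1.13 on the log2 scale (SE 0.108, edgeR adjusted p = 2.95e-07).

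**Figure D4:**
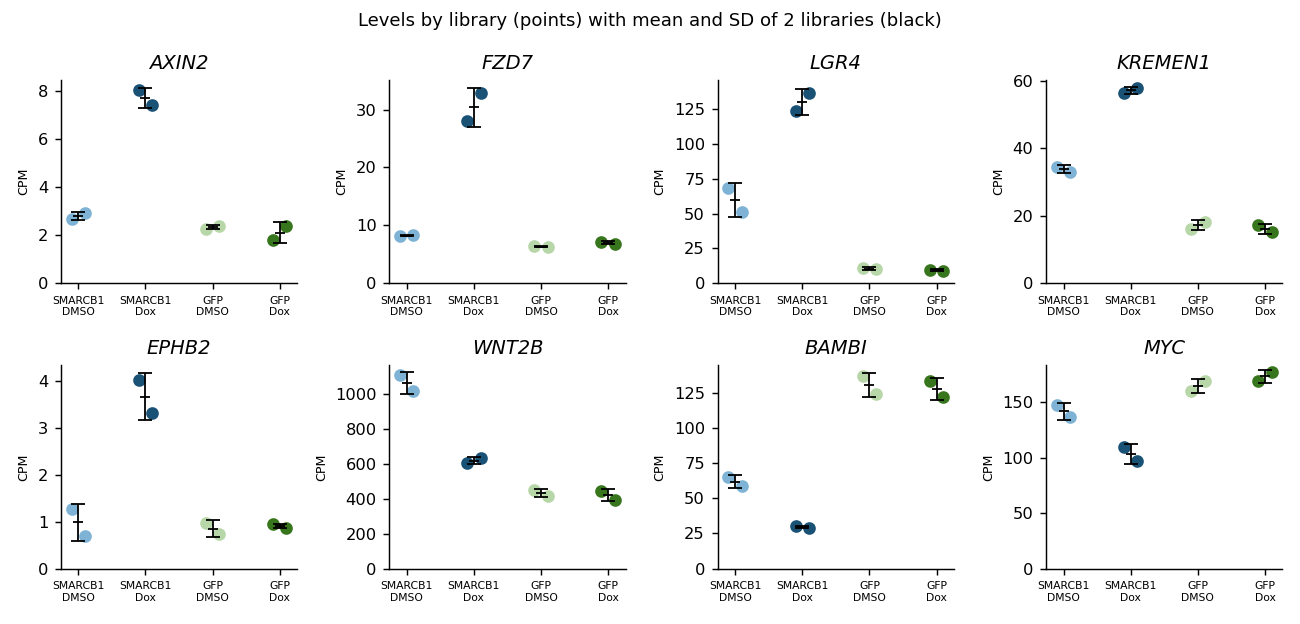
CPM of named pathway genes in each library, with points for libraries and bars for the mean and SD of 2 libraries per group. FZD7 and LGR4 are highest in SMARCB1 Dox, whereas WNT2B and BAMBI are lower in SMARCB1 Dox than in SMARCB1 DMSO.

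Of 7 tested extracellular antagonists, 2 rose and 1 fell, next to 8.33% and 5.69% of all genes. KREMEN1, a DKK receptor that removes LRP6 from the surface, had 34.6 and 32.9 CPM in SMARCB1 DMSO, 56.4 and 57.9 CPM in SMARCB1 Dox and 15.1 to 18.2 CPM in the GFP line. Its log2 fold change was 0.76 (SE 0.0946, edgeR adjusted p = 8.54e-06), and the difference between the lines was 0.85 (edgeR adjusted p = 0.000696). TRABD2A, a protease that cleaves WNT ligands, rose by 0.42 (edgeR adjusted p = 0.0452), which became 0.14 without SMARCB1 Dox replicate 1 (edgeR adjusted p = 0.634) and 0.24 without SMARCB1 DMSO replicate 2 (edgeR adjusted p = 0.349). SOST, a secreted LRP5 and LRP6 inhibitor, fell by 0.38 on the log2 scale (edgeR adjusted p = 0.00672), a call lost without SMARCB1 Dox replicate 1 (-0.33, edgeR adjusted p = 0.0785) and without SMARCB1 DMSO replicate 1 (-0.26, edgeR adjusted p = 0.115).

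The destruction complex and Dishevelled genes, all 16 of them tested, had 1 gene called lower and 0 called higher, next to 5.69% and 8.33% of all genes. The called gene was TNKS2, a tankyrase that marks AXIN proteins for degradation, with a log2 fold change of -0.33 (edgeR adjusted p = 0.00770), which without SMARCB1 Dox replicate 1 was -0.26 (edgeR adjusted p = 0.0992) and with scaling to library totals was -0.23 (edgeR adjusted p = 0.0840).

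Among the other nuclear partners of TCF factors, all 14 tested, 4 rose and 2 fell, next to 8.33% and 5.69% of all genes. TCF7L1, a TCF factor that acts mostly as a repressor, had 51.7 and 49.3 CPM in SMARCB1 DMSO and 78.3 and 71.1 CPM in SMARCB1 Dox, a log2 fold change of 0.57 (SE 0.0844, edgeR adjusted p = 7.21e-05), and its Dox effect differed between the lines by 0.57 (edgeR adjusted p = 0.00640). TLE2, a Groucho corepressor gene, rose by 0.57 (edgeR adjusted p = 0.0496), a call lost under 9 of the 15 alternatives, DESeq2 among them. TLE3 and TCF7L2, singled out after their values were seen, were the other members of this list called higher. TLE3 had the largest log2 fold change of the list, 1.35, at a low level (11 and 24 counts with DMSO, 51 and 50 with Dox). Its mean did not reach the 1 CPM asked of named genes. TCF7L2 went from 62.6 to 74.8 CPM. PYGO1, a coactivator of beta-catenin, and CTNNBIP1, which blocks its binding to TCF factors, were lower, by log2 fold changes of -0.52 (edgeR adjusted p = 0.000202) and -0.30 (edgeR adjusted p = 0.0170). The CTNNBIP1 call was lost without SMARCB1 Dox replicate 1 (-0.25, edgeR adjusted p = 0.141), without SMARCB1 DMSO replicate 2 (-0.21, edgeR adjusted p = 0.149) and with scaling to library totals (-0.21, edgeR adjusted p = 0.153).

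Other reported beta-catenin targets moved in both directions, with 2 of 9 tested genes higher and 2 lower, next to 8.33% and 5.69% of all genes. EPHB2, an ephrin receptor, went from 37 and 23 to 143 and 116 counts, against 28 to 33 in the GFP line, a log2 fold change of 1.91 (SE 0.301, edgeR adjusted p = 0.000131). FOSL1, an AP-1 subunit, rose by 0.38 (edgeR adjusted p = 0.0173), which was 0.26 without SMARCB1 Dox replicate 1 (edgeR adjusted p = 0.240), 0.23 without SMARCB1 DMSO replicate 2 (edgeR adjusted p = 0.223) and 0.23 with the GC trend removed (edgeR adjusted p = 0.170). MYC, the growth-promoting transcription factor, fell in the SMARCB1 line from 142 ± 7.69 to 103 ± 9.29 CPM (SD, n = 2), with a log2 value of -0.46 (SE 0.0842, edgeR adjusted p = 0.000631). BAMBI, a pseudoreceptor that dampens TGF-beta signalling, fell from 61.7 ± 4.50 to 29.6 ± 0.700 CPM, a log2 fold change of -1.06 (SE 0.0890, edgeR adjusted p = 5.29e-08), and was higher in the GFP line, at 122 to 137 CPM. AXIN2 and EPHB2 thus rose in the same libraries in which MYC and BAMBI fell.

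Before induction the lines already differed in many genes of the pathway. Of the 72 tested, 39 (54.2%) were called in SMARCB1 DMSO against GFP DMSO, 20 higher and 19 lower in the SMARCB1 line, next to 32% of all genes. This share, too, comes from lists chosen with earlier results of these data known. The SMARCB1 line had more TLE1, a Groucho corepressor (95.8 ± 1.08 against 8.25 ± 0.471 CPM, log2 3.54, edgeR adjusted p = 9.23e-18), and more JAG1, a Notch ligand (148 and 200 against 3 and 4 counts), which by pooled counts was 57.7-fold higher with an exact interval of 27.7 to 145. WNT2B was also higher, by 1.29 (edgeR adjusted p = 7.06e-11).

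Lower in the SMARCB1 line were WNT11, at 1.58 and 1.00 CPM against 20.8 and 24.4 CPM (log2 -4.15, edgeR adjusted p = 2.84e-13), and WNT6, whose pooled counts were 63.4-fold higher in the GFP line with an exact interval of 21.4 to 310. Of the 11 tested receptors 6 were higher and 0 lower in the SMARCB1 line, next to 16.3% and 15.7% of all genes. FZD2 was higher by 0.38 (edgeR adjusted p = 0.00422), a call lost without SMARCB1 DMSO replicate 1 (0.23). FZD4 was higher by 0.50 (edgeR adjusted p = 0.0469), a call lost under 9 of the 15 alternatives. The tankyrase gene TNKS2 and the scaffold gene APC of the destruction complex were lower, by -0.54 (edgeR adjusted p = 1.53e-05) and -0.32 (edgeR adjusted p = 0.0111), and APC was -0.25 without SMARCB1 DMSO replicate 1 (edgeR adjusted p = 0.103) and -0.24 without GFP DMSO replicate 2 (edgeR adjusted p = 0.151). Also called higher in the SMARCB1 line, on the log2 scale, were WNT7B (3.01), KREMEN1 (0.97), SOST (0.77), CSNK1A1 (0.40), DVL1 (0.37) and TCF7L2 (0.33), and called lower were TLE3 (-2.17), TRABD2A (-1.70), PYGO1 (-1.18), BAMBI (-1.08) and EPHB3 (-0.82). Of these, CSNK1A1 shares 49.3% of its exon bases with another gene on the same strand, DVL1 lost its call with scaling to library totals (0.25) and without replicate 1 of either DMSO group (0.34 and 0.33), and TCF7L2 with library totals (0.22). Both lines are G401 derivatives with the same treatment, so these values describe the engineered lines before SMARCB1 was switched on. Effects of the inserted gene and of how each line was derived cannot be told apart.

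**Figure D5:**
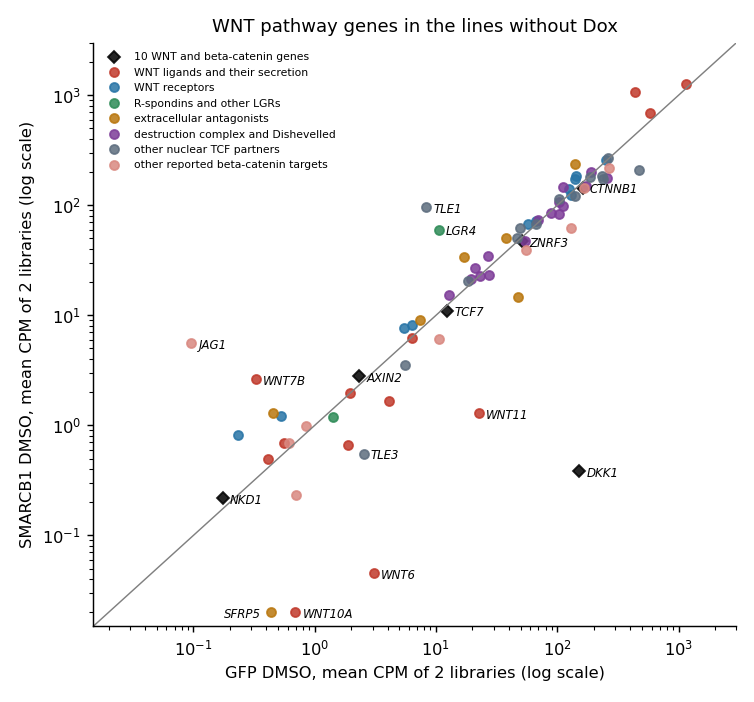
Mean CPM in SMARCB1 DMSO against mean CPM in GFP DMSO (both axes logarithmic) for the members and tested pathway genes, with genes that have no read in SMARCB1 DMSO (SFRP5 and WNT10A) drawn at the bottom edge. DKK1 lies farthest below the diagonal, and TLE1, LGR4 and JAG1 lie above it.

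The genes whose log2 CPM over the 8 libraries was most like that of AXIN2, ranked over the 9817 genes whose mean reached 5 CPM, were HERPUD2, FBLIM1, ZNRF1, CSPG4 and REPIN1, with Pearson correlations of 0.996 to 0.989. These genes share the libraries and their depth with AXIN2. Like AXIN2, they all had their highest mean in SMARCB1 Dox, so the correlations mostly reflect that group and not the size of the change. CSPG4, a surface proteoglycan, went from 64.1 CPM in SMARCB1 DMSO to 131 CPM in SMARCB1 Dox, against 60.6 and 58.5 CPM in the GFP groups. ZNRF1, a ubiquitin ligase gene, went from 21.8 to 36.3 CPM, and FBLIM1, an adhesion adaptor gene, from 19.8 to 35.7 CPM, with the GFP groups at 17.0 to 18.9 CPM for these genes. HERPUD2 and REPIN1 changed less than AXIN2, from 18.3 to 22.0 CPM and from 181 to 224 CPM.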

How the data were processed

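Total RNA of the 8 libraries was analysed from the read counts per gene deposited by the authors. They aligned reads to hg38 with STAR and counted over GENCODE v42 exons with HTSeq in intersection-strict mode. Reads wholly within bases shared by genes on the same strand were thus left unassigned. For genes on opposite strands this depended on the strand option. Tool versions and the strand option were not given in the sources used here. The labels name a ribosome profiling kit, but the methods of the study give a directional RNA kit and pools of 6 plates per condition. The 5 entries naming no gene (27.0% to 29.3% of reads) were left out. Symbols and positions came from GENCODE v44 (GRCh38), which matched 62625 of 69215 genes.

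Counts were tested with edgeR (4.0.16, R 4.3.3), with its default filter (15931 genes), TMM scaling and the quasi-likelihood test, in 1 model of the 8 libraries with a mean for each group. A gene was called where its Benjamini-Hochberg adjusted p, over all genes of 1 of the 4 comparisons, was below 0.05. CPM were scaled with TMM factors, and SEs came from the F statistics. Limits for unread genes used 3 counts. Intervals of count ratios are exact at 95% and cover counting error only. The 15 alternatives were scaling to library totals, DESeq2 size factors in edgeR, DESeq2 (1.42.0), which the study's methods name, no filter, a replicate block, removal of the trend over exon GC content without and with that block, and leaving out each library. Replicates of every group differed by more than sampling noise. The chi-square per degree of freedom was 21.9 in SMARCB1 DMSO, 13.0 in SMARCB1 Dox, 8.01 in GFP DMSO and 9.51 in GFP Dox. The model shared its estimate of the spread over these unequal groups. Medians of the lists were the same with genes unread in a group (WNT10A and SFRP5) set to the bound given by 3 counts. With 1 such gene among 13 tested ligand genes and 1 among 7 antagonists, a median could hardly move, so this does not test the medians.

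Pathway genes were named by a rule, which took from each list and comparison the 2 called genes with the largest rise and the 2 with the largest fall, if their mean reached 1 CPM. WNT5A was added after its values were seen. The members and lists were chosen with earlier results of these data known.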

Additional observations from a re-analysis of the deposited data

Results flagged for a closer look

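The Dox effect of 1 of the 6 tested members, AXIN2, differed between the SMARCB1 line and the GFP line by the interaction test. The difference was 1.62 on the log2 scale (edgeR quasi-likelihood test, adjusted p = 0.00137). The other 4 members could not be tested, and over all genes 4.71% were called in this comparison. AXIN2 was higher in Dox in both replicates of the SMARCB1 line. The same test gave positive differences for WNT6 (3.42), EPHB2 (1.82), FZD7 (1.74), LGR4 (1.31), WNT5B (1.30), KREMEN1 (0.85), TCF7L1 (0.57) and LRP5 (0.55). Negative differences were found for BAMBI (-1.03), WNT2B (-0.73), PYGO1 (-0.54) and MYC (-0.54). The WNT6 difference rests on few counts and was lost without SMARCB1 Dox replicate 1 (2.58, edgeR adjusted p = 0.161) and without SMARCB1 DMSO replicate 1 (2.55, edgeR adjusted p = 0.0798). The difference was lost without 2 of the 8 libraries in turn for WNT5B (1.12 and 1.21), PYGO1 (-0.49 in both) and MYC (-0.49 and -0.50), without 3 for LRP5 (0.44 to 0.55) and without 5 for EPHB2 (1.43 to 1.87). With 2 libraries per group, no test for a library far from the others of its group was possible.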

How the results depend on the processing

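Across 15 alternatives, 84 of 90 counts of called genes stayed within 1.5 times, and the 30 counts in the GFP line were 0 throughout. This compares numbers and not which genes were called, and a change from 2 to 3 members also stayed within the limit. Without SMARCB1 DMSO replicate 2, for example, the call in the SMARCB1 line passed from TCF7 (log2 0.30) to CTNNB1 (log2 0.32). AXIN2 was called in the SMARCB1 line and in the difference between the lines under all 15, and DKK1 in SMARCB1 DMSO against GFP DMSO under all 15, at log2 values of -9.68 to -8.02. Members called in the SMARCB1 line fell from 2 to 1 with the GC trend removed, and were 1 to 2 when each library was left out. Members called in the difference were 1 to 2 when each library was left out, with TCF7 added without SMARCB1 DMSO replicate 1. Members called between the DMSO groups were 3 with scaling to library totals (CTNNB1 -0.27 and ZNRF3 -0.26 added), 2 with the GC trend removed and the replicate block, and 1 to 2 when each library was left out, with TCF7 at -0.45 without SMARCB1 DMSO replicate 1. Library totals moved the median of all genes to 0.088 in the SMARCB1 line and to -0.10 between the DMSO groups. Pathway genes called in the SMARCB1 line were 15 to 22 when each library was left out and 20 to 27 otherwise.

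Of 1123 single log2 values, 1040 kept their direction and their side of the threshold, 59 lost and 9 gained a call, and 15 changed sign, of which 0 were called. The changed signs were in CTNNB1 (difference -0.010 without SMARCB1 DMSO replicate 1 and -0.0064 without SMARCB1 Dox replicate 2, up to 0.19), AXIN2 (GFP line 0.035 without GFP Dox replicate 1, down to -0.39), TCF7 (DMSO groups 0.094 without SMARCB1 DMSO replicate 2) and NKD1 (GFP line -0.34 without GFP DMSO replicate 1 and -0.45 without GFP Dox replicate 2, up to 1.17, DMSO groups -0.95 without SMARCB1 DMSO replicate 1 and -0.30 without GFP DMSO replicate 1, up to 1.21). DKK1 changed sign in the SMARCB1 line with library totals (0.028) and without SMARCB1 Dox replicate 1 (0.21) or SMARCB1 DMSO replicate 1 (0.95), down to -0.71, in the GFP line without GFP Dox replicate 1 (-0.016) or GFP DMSO replicate 2 (-0.032), up to 0.14, and in the difference without SMARCB1 Dox replicate 1 (0.16) or SMARCB1 DMSO replicate 1 (0.89), down to -0.77. The ends named are of leaving out each library. The causes were not tested.

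The replicate numbers were not shown to pair the samples. Deviations of same-numbered libraries from their group means correlated by 0.0864 to 0.320 over 11355 genes, with only 2 numbers. With the replicate block, 3 members were called in the SMARCB1 line, CTNNB1 being added (log2 0.21, edgeR adjusted p = 0.0211), as well as 27 pathway genes. With the GC trend also removed CTNNB1 was at 0.27 (edgeR adjusted p = 0.00175). In each group CTNNB1 was lower in replicate 1 than in replicate 2. The levels were 135 and 155 CPM in SMARCB1 DMSO and 157 and 178 CPM in SMARCB1 Dox. In the GFP line they were 151 and 171 CPM with DMSO and 171 and 181 CPM with Dox. Its adjusted p thus depended on whether the replicate numbers were used. Over all genes, the block raised the number called from 2234 to 3149 in the SMARCB1 line and from 750 to 1282 in the difference. Depth limits NKD1, LEF1, LGR5, RNF43 and SP5.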
